A study of Mus musculus with 7 samples.

Results

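The 8 genes described here encode transcription factors that build and run the gene expression programme of the mouse oocyte: Figla, Nobox, Sohlh1, Sohlh2, Lhx8, Taf4b, Tbpl2 and Gtf2a1l. They were taken by name, and all 8 were found among the 18951 gene symbols of the table. RNA came from pools of oocytes of C57BL/6 females aged 4 weeks, namely 4 pools from Nlrp2-null and 3 from wild-type (WT) females. The cumulus-oocyte complexes came from the ampulla of the oviduct and were freed of cumulus cells with hyaluronidase, and a pool held about 150 oocytes of 3 to 4 mice of 1 genotype. NLRP2 is a maternal effect protein stored in the egg, and the series asks what its loss does to the oocyte transcriptome. The labels do not say which part of Nlrp2 the null allele lacks or in which cells besides the oocyte it is missing.

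Oocyte growth is started by a small network of factors. SOHLH1 and SOHLH2 are basic helix-loop-helix (bHLH) proteins of the earliest follicles, and LHX8 (a LIM-homeodomain protein) and NOBOX (a homeodomain protein) act with them; mice that lack any of these lose their oocytes early. FIGLA, another bHLH protein, is needed to form primordial follicles and switches on the zona pellucida genes Zp1, Zp2 and Zp3 by binding E-boxes together with a widely expressed E protein. Taf4b, Tbpl2 and Gtf2a1l encode germ-cell relatives of general initiation factors. TAF4B is a relative of the TFIID subunit TAF4, TBPL2 (also called TRF3) replaces the TATA-binding protein in growing oocytes, and GTF2A1L (also called ALF) is a relative of the large TFIIA subunit.

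RefSeq promoter windows on GRCm38.p6, from 250 bases before to 50 bases after the annotated start, were matched for 7 of the 8 genes. The windows of Nobox (chr6:43309505-43309804, minus strand), Lhx8 (chr3:154330511-154330810, minus strand) and Figla (chr6:86016941-86017240, plus strand) are shown because the values below turn on these genes. Those of Zp3 (chr5:135979855-135980154, plus strand), a FIGLA target, and Bmp15 (chrX:6320675-6320974, minus strand), a NOBOX target, are shown beside them. The Figla window lies inside the gene as annotated by GENCODE (chr6:86016171-86020996), so the RefSeq start used is downstream of the GENCODE gene start. Capitals mark the E-box (CANNTG, the sequence class that bHLH proteins bind) and the NOBOX element (TAATTG or TAATTA), searched on both strands, and no match of one overlaps a match of the other.
Nobox: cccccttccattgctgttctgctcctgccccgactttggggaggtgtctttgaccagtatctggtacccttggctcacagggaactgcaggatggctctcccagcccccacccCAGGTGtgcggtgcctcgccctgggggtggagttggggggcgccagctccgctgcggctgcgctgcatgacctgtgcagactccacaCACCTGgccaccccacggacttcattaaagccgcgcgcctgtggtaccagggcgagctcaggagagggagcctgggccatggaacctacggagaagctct
Lhx8: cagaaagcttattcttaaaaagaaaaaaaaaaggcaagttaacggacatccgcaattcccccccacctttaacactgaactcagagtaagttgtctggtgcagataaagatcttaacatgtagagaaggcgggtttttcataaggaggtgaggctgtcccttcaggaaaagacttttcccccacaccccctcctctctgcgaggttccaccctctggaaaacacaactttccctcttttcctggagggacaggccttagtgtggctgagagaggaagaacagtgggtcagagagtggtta
Figla: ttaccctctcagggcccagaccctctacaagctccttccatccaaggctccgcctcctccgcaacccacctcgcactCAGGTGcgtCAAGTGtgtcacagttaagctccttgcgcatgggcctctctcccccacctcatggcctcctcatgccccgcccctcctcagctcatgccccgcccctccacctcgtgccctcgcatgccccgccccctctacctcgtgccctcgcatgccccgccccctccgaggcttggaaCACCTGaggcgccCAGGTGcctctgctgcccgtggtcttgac
Zp3: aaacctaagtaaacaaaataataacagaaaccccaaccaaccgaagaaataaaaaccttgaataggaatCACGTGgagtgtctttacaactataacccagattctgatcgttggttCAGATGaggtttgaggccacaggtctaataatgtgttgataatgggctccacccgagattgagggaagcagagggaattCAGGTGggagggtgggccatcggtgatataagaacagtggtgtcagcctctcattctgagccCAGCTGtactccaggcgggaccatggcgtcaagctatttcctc
Bmp15: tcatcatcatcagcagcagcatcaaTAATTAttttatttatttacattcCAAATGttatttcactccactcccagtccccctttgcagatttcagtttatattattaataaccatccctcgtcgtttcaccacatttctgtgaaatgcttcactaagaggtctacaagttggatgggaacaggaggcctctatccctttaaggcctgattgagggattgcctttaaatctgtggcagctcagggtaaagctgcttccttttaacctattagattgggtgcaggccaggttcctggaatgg
An E-box stood in 72.3% of 32817 promoter windows of this length and a NOBOX element in 12.4%. The windows of Tbpl2 and Sohlh1 held 5 E-boxes each, those of Figla and Zp3 4, that of Nobox 2, and those of Sohlh2 and Bmp15 1. The windows of Lhx8 and Gtf2a1l held 0. A NOBOX element was found in the window of Bmp15 and in none of the 7 factor windows. The TATA box TATAAA, searched on the coding strand, stood in 8.32% of all windows and in none of the 7. A match is a description of letters and no evidence of binding.

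The gene table holds normalized counts, which are read counts scaled by 1 factor for each pool, with 71073973 to 96330083 reads behind each pool. As a check of the labels, Nlrp2 stood at 107, 8.19, 1.96 and 63.8 normalized counts in Nlrp2-null pools 1 to 4, against 15527, 20130 and 16792 in WT pools 1 to 3. The oocyte markers Ddx4, Dppa3, Nlrp5, Ooep, Padi6, Npm2 and Dazl summed to between 338135 and 369156 in Nlrp2-null pools, against 343202 to 376375 in WT pools. Of these 7 markers limma and edgeR called 0 and 1 had an unadjusted p under 0.05 in each, Dazl, an RNA-binding protein gene of germ cells. It had 33488, 33455, 30547 and 31518 in Nlrp2-null pools, against 47009, 41539 and 39944 in WT pools, and DESeq2 called it (adjusted p = 0.000593). Differences were tested with limma on log2(normalized count + 1) over 15071 genes with a mean of at least 10, and a gene was called at a Benjamini-Hochberg adjusted p under 0.05. It called 10 genes, 0.0664% of those tested. Each fold change below is on that scale and each interval is a 95% interval that is not adjusted for the number of genes.

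None of the 7 tested factors was called in limma, and Sohlh1 was too low to test. The homeodomain genes Nobox and Lhx8 and the TFIID gene Taf4b had mean levels of 84.2%, 84.8% and 84.4% of WT in Nlrp2-null pools. Lhx8 and Taf4b were lower in every Nlrp2-null pool than in any WT pool, as were 5.16% of all tested genes. Sohlh2 and Gtf2a1l had means above WT, at 123% and 103%, and Figla and Tbpl2 means of 74% and 85.5%, all 4 with overlapping groups. Of the 7 factors 2 had an unadjusted p under 0.05 (Nobox and Lhx8, both with lower values in Nlrp2-null pools), where 10.2% of all tested genes had such a p and 4.93% had it in that direction. Differences were negative in 5 of the 7, beside 49.3% of all tested genes. On whole reads recovered from the table, edgeR and DESeq2 also called 0 of the 7, with the same 2 genes under 0.05 unadjusted; edgeR called 0.0464% of 15071 genes, and DESeq2 called 1.54% of the 12991 genes to which it gave an adjusted p. Because each sample is a pool of whole oocytes, fewer oocytes carrying a transcript and less of it per oocyte cannot be told apart.

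**Figure D1:**
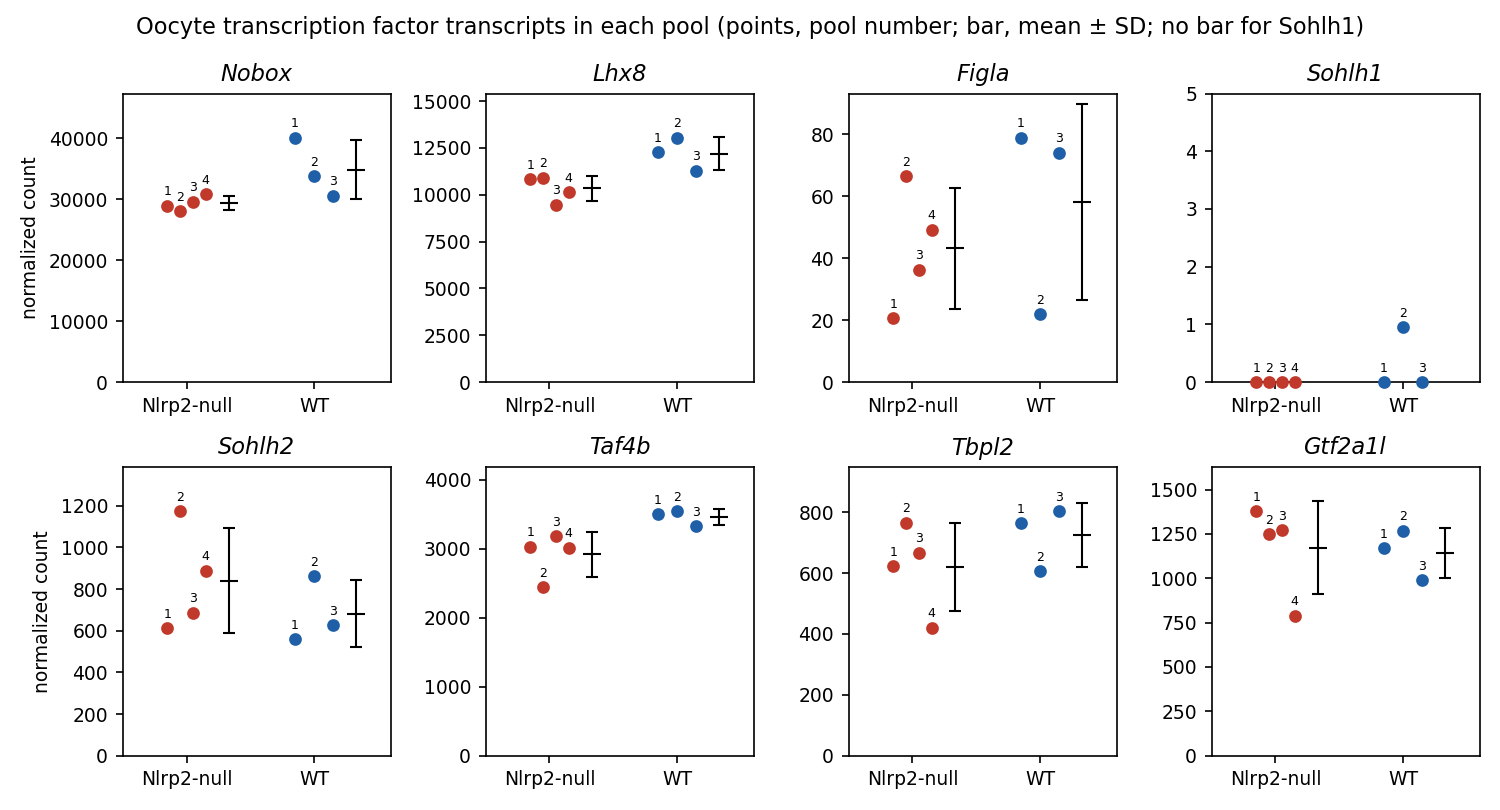
Normalized counts (vertical axes, each from 0) of the 8 factors in 4 Nlrp2-null pools (red, left) and 3 WT pools (blue, right); points carry the pool number, and bars show mean ± SD except for Sohlh1. Lhx8 and Taf4b are the factors whose Nlrp2-null points all lie below the WT points, as in 5.16% of all tested genes. Sohlh1 is at 0 in 6 of the 7 pools.

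Nobox, whose protein binds the promoters of oocyte growth factor genes, was the most abundant of the 8. It lies on chr6:43303674-43309554 (GRCm38, minus strand). Nlrp2-null pools 1 to 4 held 28918, 28002, 29567 and 30775 normalized counts, against 40097, 33784 and 30545 in WT pools 1 to 3. The Nlrp2-null pools lay close together, with means of 29316 ± 1166 in Nlrp2-null and 34809 ± 4858 in WT pools (SD, n = 4 and 3), while WT 1 stood high and WT 3 lay just below Nlrp2-null pool 4, so that the groups overlapped. The fold was 0.847 (interval 0.739 to 0.971, log2 -0.24, SE 0.0926, limma unadjusted p = 0.02, adjusted p = 0.397), with 4 of 4 Nlrp2-null pools below the WT mean. Without WT 1 the log2 difference was -0.13 (limma adjusted p = 0.599).

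Lhx8, the gene of the LIM-homeodomain factor, lies on chr3:154306294-154330659 (minus strand). Its values were 10826, 10915, 9473 and 10137 in Nlrp2-null pools, against 12259, 13054 and 11280 in WT pools. The groups did not overlap, the closest pair being Nlrp2-null pool 2 and WT 3. Among all tested genes 5.16% had every Nlrp2-null pool below every WT pool. The fold was 0.848 (interval 0.737 to 0.975, log2 -0.24, SE 0.0954, limma unadjusted p = 0.0238, adjusted p = 0.411).

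Among the bHLH genes, Figla was low and Sohlh1 was at or near 0. The level of Figla per kilobase was above that of 32.8% of tested genes. Figla (chr6:86016171-86020996, plus strand) had 20.6, 66.6, 36.3 and 49.2 normalized counts in Nlrp2-null pools, against 79, 21.9 and 74.1 in WT pools, which rest on 19, 65, 37 and 47 reads and on 75, 23 and 90 reads. Nlrp2-null pool 1 and WT 2 were both low, with exact 95% Poisson intervals of 12.4 to 32.2 and 13.9 to 32.8 normalized counts that cover counting error only. The fold was 0.788, with an interval of 0.257 to 2.42 (limma adjusted p = 0.912), which includes the fold of Nobox and folds above 1. Pools of the same genotype differed by more than counting error, since the Poisson interval of Nlrp2-null pool 2 was 51.4 to 84.8 and that of WT 1 was 62.1 to 99. Sohlh1 (chr2:25842995-25847248, minus strand) had 0 reads in all 4 Nlrp2-null pools and 0, 1 and 0 reads in WT pools. The exact 95% Poisson interval of a count of 0 ends at 3.04 to 4 normalized counts in the different pools. That of the 1 read in WT 2 ends at 5.3, so no fold is given.

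Sohlh2, whose protein pairs with SOHLH1, was present although Sohlh1 had at most 1 read in a pool. It lies on chr3:55182028-55209957 (plus strand). Nlrp2-null pools held 612, 1175, 686 and 889 normalized counts, against 558, 863 and 627 in WT pools. Pool 2 was the highest of both groups, and the groups overlapped. The fold was 1.21 (interval 0.831 to 1.77, log2 0.28, SE 0.257, limma adjusted p = 0.756).

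Taf4b, the first of the initiation factor genes, lies on chromosome 18. It had 3028, 2438, 3180 and 3013 normalized counts in Nlrp2-null pools, against 3499, 3544 and 3321 in WT pools. WT pools were close together (SD 118 on a mean of 3455) and all lay above the Nlrp2-null pools, of which pool 2 was lowest. The fold was 0.84 (interval 0.694 to 1.02, log2 -0.25, SE 0.13, limma unadjusted p = 0.07, adjusted p = 0.54).

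Tbpl2 (chr2:24071721-24096595, minus strand) had 623, 766, 667 and 421 normalized counts in Nlrp2-null pools, against 764, 606 and 804 in WT pools. Nlrp2-null pool 4 was the lowest of all, and the groups overlapped (fold 0.841, interval 0.582 to 1.22, limma adjusted p = 0.783). Without that pool the log2 difference was -0.07 in place of -0.25. Gtf2a1l (chr17:88668660-88715152, plus strand) had 1379, 1248, 1271 and 790 in Nlrp2-null pools, against 1168, 1267 and 990 in WT pools. Pool 4 was again the lowest, and the fold was 1.01 (interval 0.741 to 1.38, limma adjusted p = 0.989). None of the 8 genes has an exon that overlaps another annotated gene, so reads of a neighbour do not enter their counts through overlapping exons.

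**Figure D2:**
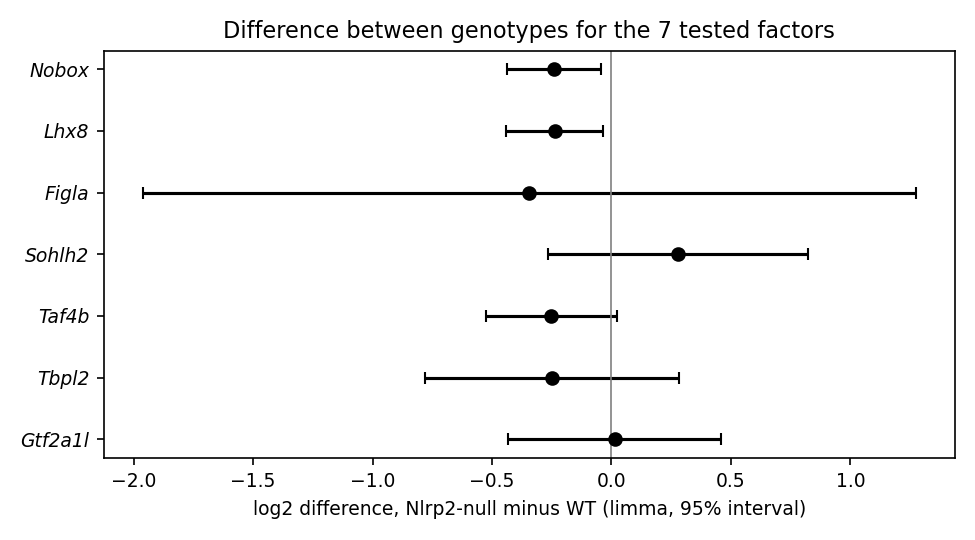
Log2 differences, Nlrp2-null minus WT, of the 7 tested factors (points) with 95% limma intervals (bars). The intervals of Nobox and Lhx8 end below 0, at -0.04, before adjustment over all genes, and that of Figla is the widest.

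The library numbers in the labels form 2 ranges, with Nlrp2-null pools 1 and 2 and WT 1 and 2 in the lower and Nlrp2-null pools 3 and 4 and WT 3 in the higher. The log2 difference of Lhx8 was -0.22 in the lower range and -0.20 in the higher. That of Nobox was -0.37 in the lower and -0.02 in the higher, and that of Taf4b was -0.37 and -0.10. For Tbpl2 it was 0.02 in the lower range and -0.60 in the higher, and for Figla -0.16 and -0.80. The higher range holds 1 WT pool, and whether the differences vary between the ranges was not tested. With the range as a covariate the log2 differences were -0.23 for Nobox, -0.21 for Lhx8 and -0.27 for Taf4b, with limma adjusted p values of 0.498, 0.515 and 0.589.

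Levels of different genes were compared as normalized counts per kilobase of the principal transcript. Nobox averaged 15486 ± 616 per kilobase in Nlrp2-null and 18388 ± 2566 in WT pools, above 98.6% of tested genes, and Lhx8 5979 ± 389 and 7055 ± 514, above 95% of them. Nobox stood in Nlrp2-null pools beside the zona gene Zp1 (14446 ± 1006), and the ranges of Nobox and Zp1 overlapped within each genotype. Zp2 (12851 ± 1465 in Nlrp2-null pools) lay below the range of Nobox in each genotype. Gtf2a1l, Taf4b and Tbpl2 followed far below, at 723 ± 161, 566 ± 63.4 and 449 ± 105 in Nlrp2-null and 704 ± 86.4, 671 ± 22.9 and 525 ± 75.6 in WT pools. Sohlh2 came next at 356 ± 106 in Nlrp2-null and 289 ± 67.6 in WT pools, and Figla at 56.9 ± 25.7 and 76.8 ± 41.7. The order by principal transcript was the same in both genotypes. Per kilobase of all annotated exons merged, Taf4b (671) stood above Gtf2a1l (605) in WT pools and below it in Nlrp2-null pools (566 and 621). The neighbours Gtf2a1l and Taf4b overlapped in range in both; Taf4b and Tbpl2, and Tbpl2 and Sohlh2, overlapped in Nlrp2-null pools and were apart in WT pools. All other neighbours were apart in both.

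**Figure D3:**
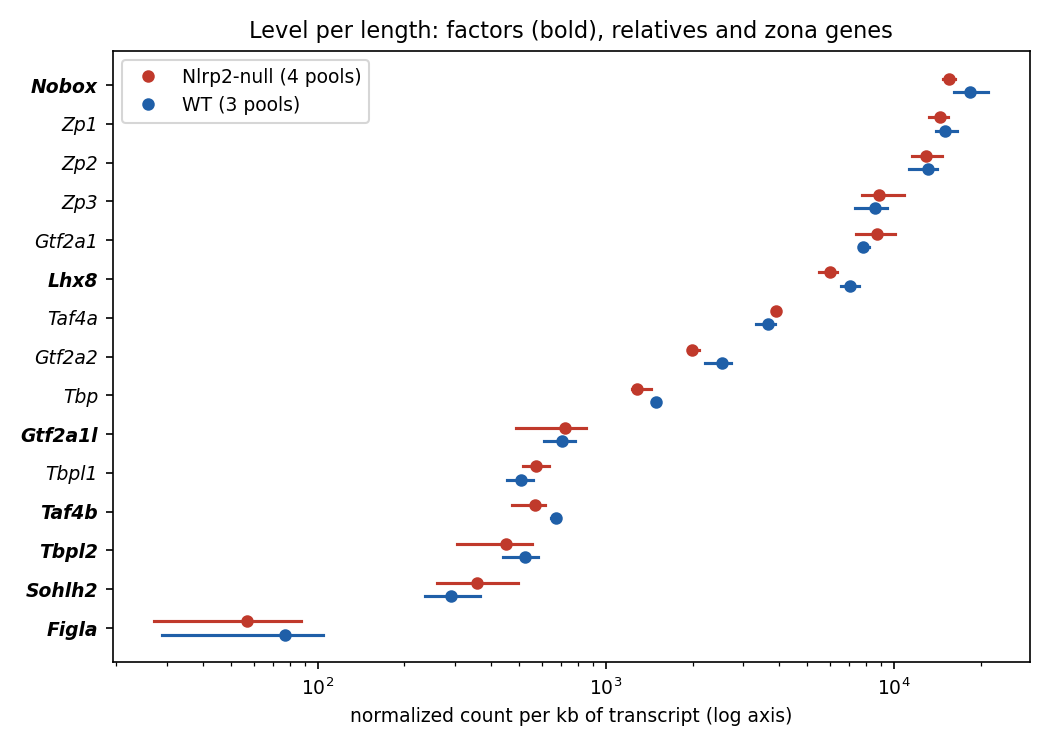
Normalized counts per kilobase of principal transcript (log axis) for 7 factors (bold), their general relatives and the zona genes, in 4 Nlrp2-null pools (red) and 3 WT pools (blue); points are means and lines run from the lowest to the highest pool. Nobox (15486 and 18388) lies beside Zp1 and above Zp2 and Zp3, and Figla (56.9 and 76.8) lies at the bottom. Sohlh1, at or near 0, is left out, and Tbp is divided by a transcript of 12794 bases.

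The germ-cell forms were set against their general relatives by the ratio of their levels per kilobase. Tbpl2 stood at 0.316, 0.451, 0.39 and 0.246 of the level of Tbp, which encodes the TATA-binding protein, in Nlrp2-null pools. In WT pools it stood at 0.383, 0.292 and 0.383, and these ratios overlapped. Their size depends on the 12794 bases by which Tbp was divided, and a shorter length would lower them in both genotypes alike. Before division by length, the mean normalized counts in Nlrp2-null pools were 619 for Tbpl2 and 16448 for Tbp. Exons of Tbp overlap Pdcd2 by 2582 bases, and whether reads of Pdcd2 entered the counts of Tbp was not tested. Taf4b stood at 0.155, 0.121, 0.156 and 0.152 of the level of Taf4a, which encodes TAF4, in Nlrp2-null pools, against 0.206, 0.179 and 0.169 in WT pools. All 4 Nlrp2-null ratios lay below the 3 WT ratios, as the normalized counts of Taf4b itself did. Taf4a itself had a log2 difference of 0.09 (SE 0.0867, limma adjusted p = 0.78). Gtf2a1l stood at 0.0825 ± 0.0143 of the level of Gtf2a1, the TFIIA large subunit gene, in Nlrp2-null and 0.0906 ± 0.0146 in WT pools, which overlapped (Gtf2a1 log2 difference 0.15, SE 0.0946, limma adjusted p = 0.623). Against Tbpl1, the other TATA-binding protein relative, Tbpl2 stood at 0.799 ± 0.224 and 1.05 ± 0.252 (Tbpl1 log2 difference 0.17, SE 0.158, limma adjusted p = 0.75). No test was made of these ratios.

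**Figure D4:**
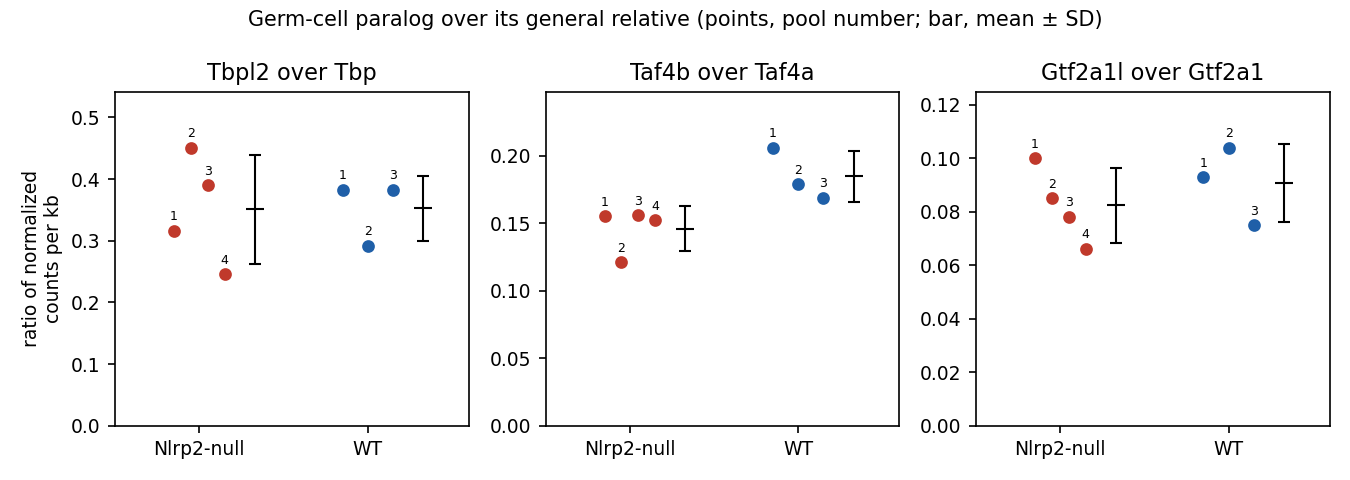
Ratios of normalized counts per kilobase (vertical axes from 0), germ-cell form over general relative, in 4 Nlrp2-null pools (red, left) and 3 WT pools (blue, right); points carry the pool number and bars show mean ± SD. The ratio of Taf4b to Taf4a is the panel in which the groups are apart (0.146 ± 0.0167 and 0.184 ± 0.0188). The normalized counts of Taf4b alone are also apart.

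Genes reported to need these factors did not pass in limma. All 13 of the list were tested: 0 were called in limma, edgeR or DESeq2, 1 had an unadjusted p under 0.05, and 9 had positive differences, with a median log2 of 0.07 beside 0.01 over all tested genes. The FIGLA targets were close to WT. Zp1 had 30178, 25880, 27677 and 29692 normalized counts in Nlrp2-null pools, against 27326, 32554 and 28744 in WT pools (log2 -0.06, SE 0.0884). Zp2 had 32628, 29681, 26171 and 25685 in Nlrp2-null pools, against 25081, 30928 and 31283 in WT pools (log2 -0.03, SE 0.103). Zp3, whose promoter window with 4 E-boxes is printed above, had 14348, 10540, 10266 and 11738, against 11892, 12506 and 9699 (log2 0.04, SE 0.123). The limma adjusted p values were 0.862, 0.951 and 0.938, and the signs of all 3 changed under 1 or more alternatives. The NOBOX targets Gdf9 and Bmp15, which encode the growth factors that oocytes send to their follicle cells, had means above WT. Gdf9 stood at 253831 ± 27901 in Nlrp2-null and 219677 ± 16500 in WT pools (log2 0.20, SE 0.0888, limma adjusted p = 0.453), and Bmp15 at 192577 ± 8336 and 173905 ± 22496 (log2 0.15, SE 0.0856, limma adjusted p = 0.573). Zar1, a maternal effect gene, had a log2 difference of -0.11 (SE 0.0795). The groups overlapped in each of the 13.

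The TATA-binding protein, TFIID and TFIIA genes outside the 8 held 3 genes whose Nlrp2-null pools were all below WT, of 19 tested, beside 5.16% of all tested genes. Tbp had 18314, 15750, 15863 and 15865 normalized counts in Nlrp2-null pools, against 18517, 19247 and 19459 in WT pools (log2 -0.22, SE 0.0869, limma adjusted p = 0.412). Exons of Tbp overlap Pdcd2 on the opposite strand, and the sources used here do not say whether counting used strand. Taf9b, a TFIID subunit gene, had 30377, 27738, 23982 and 27059, against 32756, 31883 and 34575 (log2 -0.28, SE 0.0885, limma adjusted p = 0.292). Gtf2a2, the small TFIIA subunit gene, had 2182, 2005, 2046 and 1989, against 2713, 2289 and 2815 (log2 -0.34, SE 0.137, limma adjusted p = 0.424). limma, edgeR and DESeq2 called 0 of the 19, the same 3 genes had an unadjusted p under 0.05 in limma, and the list median was -0.06. Taf3 had the highest level per kilobase of these genes.

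Partners and other factors of the oocyte were counted in the same way. All 6 tested E-protein and Id genes had positive differences, with a median log2 of 0.37 beside 0.01 over all tested genes. Of the 6 limma called 0, and 1 had an unadjusted p under 0.05. This was Tcf4, an E-protein gene, with 1931, 1568, 1984 and 1897 normalized counts in Nlrp2-null pools, against 1212, 1101 and 1067 in WT pools. All Nlrp2-null pools lay above WT, as in 4.74% of tested genes (log2 0.71, SE 0.16, limma adjusted p = 0.129); DESeq2 called it (adjusted p = 0.00361) and edgeR did not. Id2, an inhibitor of bHLH pairing, overlapped widely (218 ± 215 in Nlrp2-null and 78.4 ± 105 in WT pools), and Tcf12 had a log2 difference of 0.09 (SE 0.158). Of 9 tested LIM cofactor genes limma, edgeR and DESeq2 called 0 and 0 had an unadjusted p under 0.05 in any of these, with a median log2 of -0.02. Ldb1, the adaptor of LIM-homeodomain proteins, had -0.20 (SE 0.115), Ldb2 had 0.24 (SE 0.181), and Rlim, whose product degrades such adaptors, had -0.15 (SE 0.0957).

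All 10 other oocyte factors tested had positive differences, with a median log2 of 0.14, and limma, edgeR and DESeq2 called 0 of them. Zfp42, near the filter, had a mean of 12.9 in Nlrp2-null and a higher 13.3 in WT pools, with log2 0.09 (SE 1.22). Sub1 was at log2 0.03 (SE 0.143). Over all tested genes 7648 of 15071 differences were positive. In 4 of the 10 every Nlrp2-null pool lay above every WT pool, beside 4.74% of all tested genes. Sall4, a zinc finger factor of germ cells, had 62730, 55166, 53588 and 49492 normalized counts in Nlrp2-null pools, against 45966, 49399 and 44181 in WT pools (log2 0.24, SE 0.0868, limma unadjusted p = 0.0125, adjusted p = 0.363). Foxo3, which keeps primordial follicles dormant, had 45869, 44187, 44502 and 46464, against 40948, 40057 and 39652 (log2 0.17, SE 0.0718, limma unadjusted p = 0.0309, adjusted p = 0.437). The other pair was Foxo1 and Yy1, and Sp1 had a log2 difference of 0.21 with overlapping groups (SE 0.107). Zfp57, an imprint guardian, had the highest level per kilobase of the list.

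**Figure D5:**
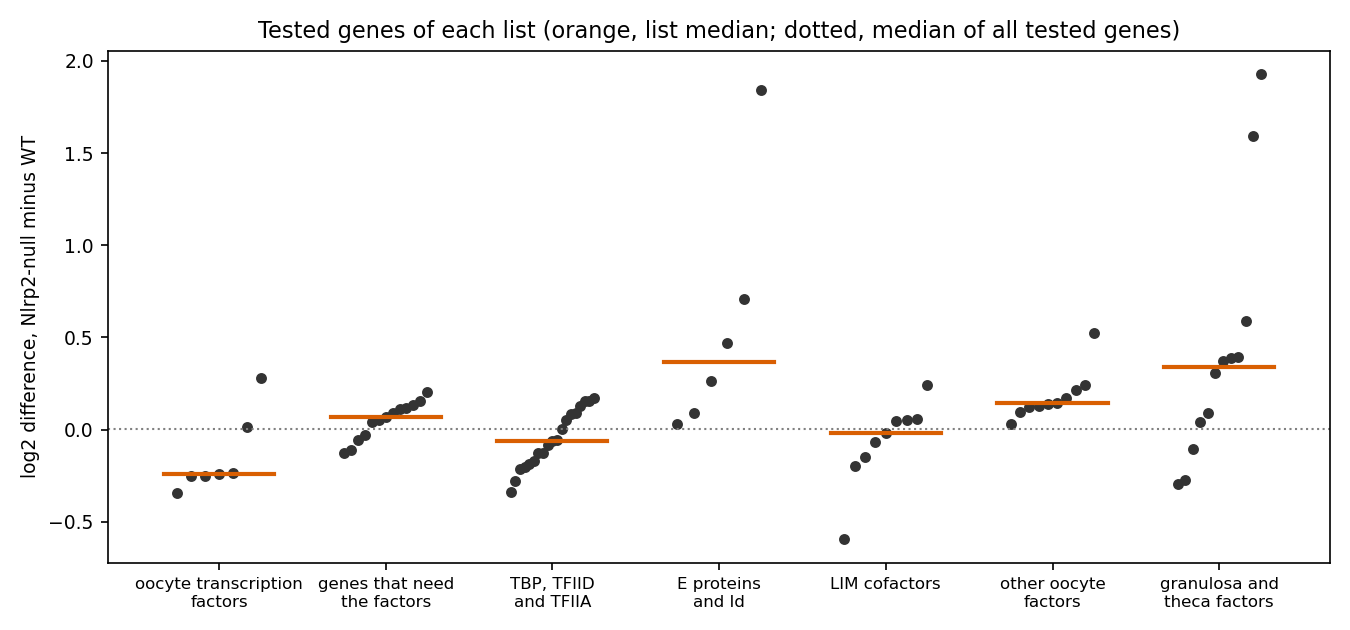
Log2 differences, Nlrp2-null minus WT (vertical axis), of the tested genes of 7 lists; each point is a gene, orange lines are list medians and the dotted line is the median over all 15071 tested genes (0.01). The median of the 7 tested factors is -0.24 and that of the 10 other oocyte factors is 0.14.

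Transcripts of follicle cell marker genes were counted in every pool. Of 12 tested granulosa and theca factors 9 had positive differences, with a median log2 of 0.34 beside 0.01 over all tested genes. Of all 15071 tested genes 7648 had positive differences and 10.2% had an unadjusted p under 0.05 in limma. For these 12, limma, edgeR and DESeq2 called 0, and 2 had an unadjusted p under 0.05 in limma, 1 in each direction. Gata4, a factor of follicle cells, was among them, with 2196, 2209, 2472 and 2776 normalized counts in Nlrp2-null pools, against 3077, 2650 and 3140 in WT pools, which overlapped (log2 -0.30, SE 0.138, limma adjusted p = 0.488). Runx2 had a log2 difference of 0.31 (SE 0.245), and Nr5a2 was the highest of these per kilobase. The 20 cumulus and granulosa markers summed to 35376, 35737, 51087 and 58291 normalized counts in Nlrp2-null pools, against 48897, 26468 and 35607 in WT pools. Of 19 tested markers limma and edgeR called 0, 15 had positive differences, 2 had an unadjusted p under 0.05 in limma, and DESeq2 called 1, Inhbb (adjusted p = 6.6e-06). Inhbb had 217, 63.5, 234 and 847 normalized counts in Nlrp2-null pools, against 35.8, 14.3 and 8.23 in WT pools (fold 13.3, interval 4.16 to 42.5, limma adjusted p = 0.101). Oviduct markers summed to 29236 to 36525 in Nlrp2-null pools, against 20743 to 30562 in WT pools. Most of this sum is Cdh1, a gene that oocytes also express. Leukocyte and red cell markers summed to 336 to 2607 in Nlrp2-null pools, against 396 to 669 in WT pools. The highest of these sums was in Nlrp2-null pool 3, where Lyz2 held 2427 normalized counts. The red cell markers Hbb-b1 and Hba-a1 were not among the gene symbols. Of 7 tested oviduct markers 6 had positive differences and limma, edgeR and DESeq2 called 0. In limma 3 had an unadjusted p under 0.05, all with positive differences: Cdh1, Krt8 (fold 2.92, interval 1.23 to 6.92, groups apart) and Ovgp1 (fold 4.25, interval 1.19 to 15.1, groups overlapping). Among all tested genes 795 of 15071 had such a p in that direction. Every Nlrp2-null pool lay above every WT pool in 4.74% of tested genes, as for Krt8. None of the analysed markers was at 0 in all 7 pools. With the mean of the cumulus markers added to the model, the log2 differences were -0.33 for Nobox (limma adjusted p = 0.207), -0.20 for Lhx8 (0.594) and -0.29 for Taf4b (0.561). In the same model they were -0.75 for Figla, 0.33 for Sohlh2, -0.11 for Tbpl2 and 0.21 for Gtf2a1l, with limma adjusted p values of 0.864, 0.794, 0.951 and 0.836. Id2 was at 0.39 in that model (limma adjusted p = 0.936), against 1.84 without the markers.

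For each factor with a mean of at least 100, the gene with the most similar profile was sought by the root mean square distance of log2 values, centred on the gene's own mean, over the 7 pools. The nearest gene was Pigq for Nobox (distance 0.0456), 2610015P09Rik for Lhx8 (0.0346), D630045J12Rik for Taf4b (0.0353), Mtch1 for Sohlh2 (0.158), Zcchc4 for Tbpl2 (0.0965) and Hace1 for Gtf2a1l (0.0142). Hace1 had 1095, 981, 1015 and 637 normalized counts in Nlrp2-null pools, against 926, 993 and 795 in WT pools, with the same low Nlrp2-null pool 4 as Gtf2a1l. The distance is a description of these 7 pools and has no test.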

How the data were processed

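The authors deposited a table of signal for each gene symbol and pool, which holds read counts scaled by 1 factor for each pool, as the file name and values show. Per the submitters' processing notes reads were processed on GRCm38 or mm10 with tools that include the aligners STAR 2.5.0a and TopHat2 2.0.9, the counters featureCounts 1.5.0-p1 and HTSeq, and DESeq2 1.22.2, DESeq and HOMER. The name of the deposited table gives DESeq2 for the normalization. Which aligner and counter made the counts, and whether strand was used, the sources used here do not say. Per the labels' protocols the RNA was amplified with a NuGEN kit, so reads are not independent molecules and intervals from reads cover counting error only. A deposited table of assembled transcripts without gene names was not used.

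Within a tolerance of 0.01, 100% of the values above 0 came out as whole multiples of 1 read of their pool. Nlrp2-null and WT pools were compared with limma 3.58.1 (R 4.3.3), which was given log2(normalized count + 1) and let the variance follow the level. It had no covariates and took genes with a mean of at least 10, and p values were adjusted over all 15071. The labels do not say that pools share no animals or litters, so p values measure the spread between these pools. edgeR 4.0.16 and DESeq2 1.42.0 were run on the recovered reads. limma, edgeR and DESeq2 were tested on simulated data. Positions, transcript lengths and overlaps are from GENCODE M21, promoters from RefSeq. The members and lists were chosen with earlier results of these data known. Named genes are the 8 members, Nlrp2, the 3 genes of each list with the smallest p and the 1 with the highest level per kilobase. The relatives Tbp, Tbpl1, Taf4a, Gtf2a1 and Gtf2a2, Zp1 to Zp3, and the nearest profile per member are named too. Of the marker lists sums and calls are given, and Foxo1, Yy1, Zfp42 and Sub1 were named after their values were seen. A gene that this rule names is not reported here.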

Additional observations from a re-analysis of the deposited data

Results flagged for a closer look

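Tbp stood at 18314 normalized counts in Nlrp2-null pool 1, apart from the other 3 Nlrp2-null pools, which lay between 15750 and 15865. The gap to the nearest pool was 0.955 of the range of the 4 pools, above the 95% critical value of Dixon's test for 4 values. Of 34 genes checked it was the only 1 so set apart, and chance sets about 1 in 20 groups apart. With its value included, Nlrp2-null pool 1 still lay below the lowest WT pool (18517).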

How the results depend on the processing

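None of the 7 tested factors was called in any of the alternatives, including edgeR, DESeq2, the fits without 1 pool each and the fit without Nlrp2-null pools 3 and 4, which was chosen after seeing the data. Nobox, Lhx8, Taf4b, Tbpl2 and Figla kept negative and Sohlh2 positive differences in all of them; Figla did not enter the filter at a mean of 100. Without 1 pool Figla ran from -0.931 (without WT 2) to -0.0276 (without WT 1), with -0.0398 without Nlrp2-null pool 1 and -0.0732 without WT 3, and Sohlh2 from 0.102 (without Nlrp2-null pool 2) to 0.46 (without WT 2). The log2 difference of Gtf2a1l was -0.0458 with equal medians, -0.00737 with quantile normalization and -0.0853 to 0.192 over the fits without 1 pool. Zp2 was at 0.122 with the mean of the cumulus markers added, 0.0209 with a replicate block, 0.104 without Nlrp2-null pools 3 and 4 and -0.131 to 0.0284 without 1 pool; Zp3 was at -0.0189 with equal medians and -0.0698 to 0.114 without 1 pool, and Zp1 at -0.112 to 0.0143 without 1 pool. With the cumulus marker mean Runx2 was at -0.116 and Tcf12 at -0.0740, and without Nlrp2-null pools 3 and 4 they were at -0.0315 and -0.175; Tcf12 ran from -0.00867 to 0.183 without 1 pool. Equal medians moved the median of all genes by -0.06. The cause of these reversals was not tested.

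The number of genes called over all was 10 in the main test, 6 with equal medians, 18 with the cumulus marker mean, 200 in DESeq2 and 0 in limma without a variance trend (1252 with an unadjusted p under 0.05) or without Nlrp2-null pools 3 and 4 (1080). Leaving out 1 pool gave 2 to 16 genes: 2 without Nlrp2-null pool 3, 4 without pool 4, 16 without pool 1, 4 without WT 2 and 5 without WT 3. DESeq2 called 1 E-protein or Id gene, where limma called 0. Nlrp2 was not called without a variance trend (limma adjusted p = 0.316), in robust limma (0.147) or without Nlrp2-null pools 3 and 4 (0.133). The replicate numbers were not found to pair the pools: deviations of same-numbered pools correlated across genes at -0.163, 0.0192 and -0.0121, and with the replicate block 1 gene was called and no factor. Reads limit Sohlh1; for Figla the pools of a genotype differed by more than counting error.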

Other observations

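Single pools stood at the edge of both groups for more than 1 factor. Nlrp2-null pool 4 was the lowest of the 7 pools for Tbpl2 (421 normalized counts) and Gtf2a1l (790). Nlrp2-null pool 2 was the highest for Sohlh2 (1175) and the lowest for Nobox (28002) and Taf4b (2438). WT 2 was the highest for Lhx8 (13054) and Taf4b (3544), and WT 1 was the highest for Figla (79) and Nobox (40097) and the lowest for Sohlh2 (558).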
